A study of Mus musculus with 11 samples.

Results

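The subunits of the oxidative phosphorylation system were examined in cultured mouse monocyte-derived Langerhans cell (mLC)-like cells. Members were chosen by gene symbol alone, as every row of the expression table that begins with Ndufa, Ndufb, Ndufc, Ndufs or Ndufv and a digit, Sdha to Sdhd, Uqcr, Cox4 to Cox8, Atp5 or mt-. This gave 101 of 21860 rows, of which 88 were nuclear-encoded and 13 mitochondrial-encoded. By symbol, 39 nuclear and 7 mitochondrial rows belonged to complex I, 4 nuclear rows to complex II, 8 nuclear and 1 mitochondrial row to complex III, 19 nuclear and 3 mitochondrial rows to complex IV, and 18 nuclear and 2 mitochondrial rows to complex V. Ndufa4 and Ndufa4l2 were counted with complex I by their names, although Ndufa4 is now regarded as a subunit of complex IV.

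Oxidative phosphorylation takes place at the inner mitochondrial membrane. Complexes I and II pass electrons from NADH and succinate to ubiquinone, complex III passes them on to cytochrome c and complex IV to oxygen, while the proton gradient built by complexes I, III and IV drives ATP synthesis by complex V. Most subunits are made from nuclear genes, a small core is made from mitochondrial DNA, and complex II is nuclear-encoded throughout. In macrophages and dendritic cells the use of this system is known to change with differentiation and activation.

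RNA was sequenced from 11 bulk samples of CD11b-low EpCAM+ cells sorted on day 6 from cultures of mouse bone marrow monocytes. GM-CSF (20 ng/ml) was in every culture, and all but 1 culture also held TGFβ (5 ng/ml) together with IL-34 (8 µg/ml). To this base was added Jagged-1 (Jag1), a Notch ligand presented by an OP9 stromal line, FICZ, or both. FICZ is a ligand of the aryl hydrocarbon receptor that the study describes as an agonist and the deposited design text as an antagonist. The base alone is called TGFβ/IL-34 and has 2 samples, as has TGFβ/IL-34/FICZ. With Jag1 there are 3 samples of TGFβ/IL-34/Jag1 and another 3 that also held FICZ, called TGFβ/IL-34/Jag1/FICZ. The single Jag1 only sample had GM-CSF and Jag1 without the other factors. The dose of FICZ is not given in the sources used here, and neither genotype nor age is given in the sample labels. Replicates of the same group carry different experiment codes, but nothing in the labels states that they came from separate animals. The p-values therefore measure the spread between these samples, which may be partly technical.

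The deposited values are normalized counts whose totals were 21.3 M to 27.8 M per sample, from an estimated 20.6 M to 24.2 M reads (M for mega). All 6 markers of mLC-like cells that were checked (Epcam, Cd207, Ptprc, Csf1r, H2-Ab1, Itgax) were above 0 in every sample. The labels describe every culture as growing with OP9 cells, but the summed level of 10 stromal markers was 12.8 to 38.0 in the 4 cultures without Jag1, where at most 5 of the 10 were above 0, and 420 to 4635 in the 7 cultures with it. Jag1 and stroma therefore cannot be told apart in the comparisons of cultures with and without Jag1. Since these are bulk samples, fewer cells of a type and less RNA per cell cannot be told apart.

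Of the 101 members, 94 reached a normalized count of at least 10 in at least 2 samples and were tested (81 nuclear, 13 mitochondrial). The remaining 7 were at or near 0 and comprised Cox8b and Cox8c (tissue-restricted forms of a complex IV subunit), Cox7b2, Ndufb11b, Ndufa4l2, Cox5b-ps and a second row named Atp5o. Levels can be compared between genes only per length of transcript. The length used is that of the annotated canonical transcript, which may not be the one expressed here, so such comparisons are approximate. It is 4389 bases for Ndufb2, which was the lowest nuclear member of complex I per kilobase. On that scale, averaged over the 10 samples other than TGFβ/IL-34/FICZ replicate 1, the nuclear members had medians of 792 normalized counts per kilobase in complex I, 969 in complex II, 1203 in complex III, 3254 in complex IV and 2073 in complex V. Cox4i1, the widely used form of a regulatory complex IV subunit, was highest among them at 9557 per kilobase. The mitochondrial member mt-Co1, the catalytic subunit of complex IV, reached 163330 per kilobase and made up 55.8% to 64.2% of the mitochondrial sum in each sample.

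One library stood apart from the rest and is described first, because it touches most results that follow. In TGFβ/IL-34/FICZ replicate 1, 77 of 81 tested nuclear members were at their highest of all 11 samples, which was 95.1% of them beside 25.2% of all genes tested. The median ratio of this sample to TGFβ/IL-34/FICZ replicate 2 was 2.34 for nuclear members, 0.353 for mitochondrial members and 0.993 over all genes tested. The nuclear members took 1.21% of all normalized counts there and 0.648% to 0.762% in the other 10 samples.

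The nuclear rise in that library was uneven across complexes. The median ratio of replicate 1 to replicate 2 was 2.34 for complex I, 1.56 for complex II, 2.24 for complex III, 2.64 for complex IV and 1.91 for complex V. Sdha, the flavoprotein of succinate dehydrogenase, went the other way and read 3714 in this sample and 3959 to 4866 in the other 10, so that it was the only nuclear member at its lowest there. Sdhb, the iron-sulphur subunit of the same complex, read 2383 beside 902 to 1191.

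The mitochondrial members of that library did not move as 1 block either. mt-Nd4l, a membrane subunit of complex I, stood at 163 in replicate 1 and 4429 in replicate 2. mt-Cytb, the cytochrome b of complex III, stood at 3343 and 24130. By contrast mt-Co2 and mt-Co3, which complete the catalytic core of complex IV, were at 26799 and 43545 in replicate 1, above each of the other 10 samples. Several of these genes overlap or adjoin each other on the mitochondrial genome (mt-Atp8 with mt-Atp6, mt-Nd4l with mt-Nd4) and nuclear copies of mitochondrial genes and of many subunits exist, so the division of reads between such rows is uncertain.

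**Figure D1:**
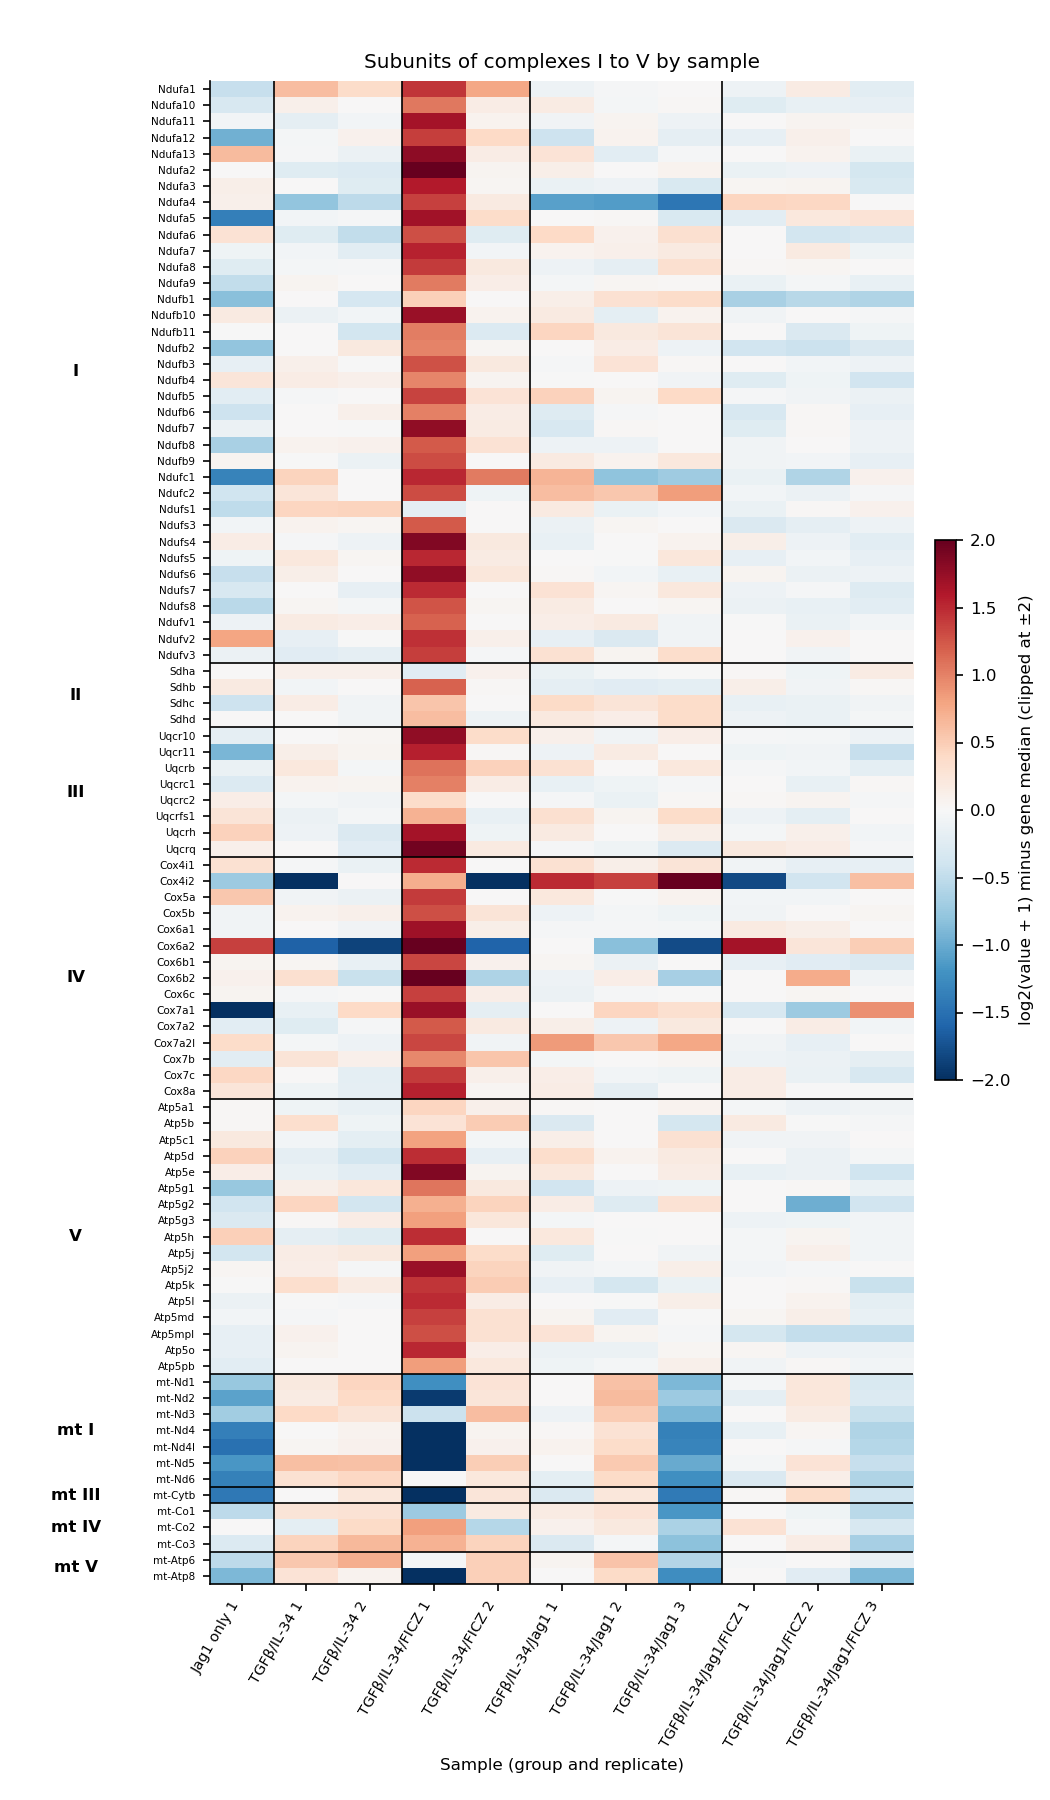
Heat map of all but 1 of the 94 tested members (rows, grouped by genome and complex) in the 11 samples (columns), coloured by log2(value + 1) minus the median of that gene over all samples and clipped at 2 in either direction. The column of TGFβ/IL-34/FICZ replicate 1 is red for nearly all nuclear rows and blue for most mitochondrial rows, and the mitochondrial rows are also blue in Jag1 only and in TGFβ/IL-34/Jag1 replicate 3.

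Transcript length moved with this difference. Over all genes tested, the median log2 difference between the 2 TGFβ/IL-34/FICZ samples was 0.85 for canonical transcripts under 500 bases, 1.27 from 500 to under 750 bases and 1.16 from 750 to under 1000 bases. It then fell to 0.22 from 2000 to under 3000 bases and to −0.68 at 5000 bases or more. The other 7 pairs of same-group samples had medians between −0.16 and 0.18 in every length class. Nuclear members are short, with a median canonical transcript of 1014 bases beside 3410.5 bases over all genes tested. The 9 nuclear members of 3000 to under 5000 bases had a median difference of 0.94, with a range from −0.31 to 1.64. All 4147 genes of that length had a median of −0.21. Lengths are those of the annotated canonical transcript, which may not be the transcript these cells express. The part of transcript length in the result was not tested. A code in the sample descriptions was read here as the flow cell, which no label names as such. By that code the sample shared its flow cell with TGFβ/IL-34/Jag1/FICZ replicate 1 alone, whose nuclear share was 0.677%. The part of the flow cell in the result was not tested.

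**Figure D2:**
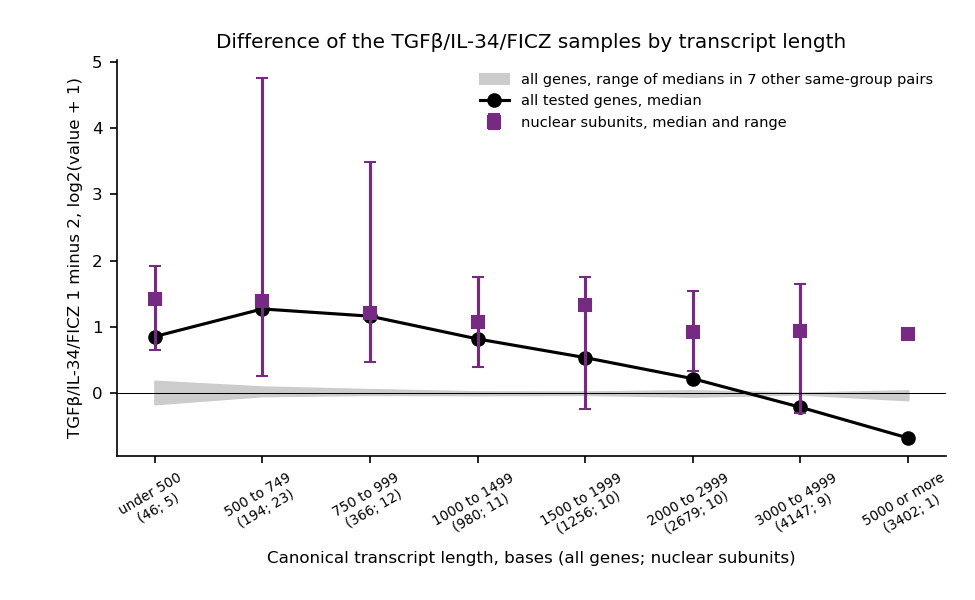
Difference between TGFβ/IL-34/FICZ replicates 1 and 2 in log2(value + 1) (y axis) by length class of the canonical transcript (x axis, with the numbers of all genes and of nuclear members in brackets). The black line is the median of all tested genes and falls from 1.27 to −0.68, the squares with bars are the median and range of the nuclear members, and the grey band is the range of medians in the 7 other same-group pairs.

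Outside that library most nuclear members varied little. Over the other 10 samples the coefficient of variation had a median of 12.7% for the 81 nuclear members and 27.2% for all genes tested, which were not matched for level, and 66 of the 81 varied by less than 2-fold from their lowest to their highest sample. Cox6c, a small complex IV subunit, had the lowest coefficient of variation (4.33%), with 1724 to 2046 in these 10 samples. Atp5a1, the α subunit of the catalytic head of ATP synthase, had the lowest ratio of highest to lowest sample (1.18) and ranged from 10604 to 12519. Uqcrc2, a core subunit of complex III, ranged from 2409 to 2896. The most variable were low genes, such as the muscle form Cox6a2, which ranged from 7.76 to 98.5.

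For complexes II to V, the nuclear member with the highest mean normalized count over all 11 samples, not corrected for length, was also followed over the 10 samples. Per kilobase the highest were Sdhd, Uqcr10, Cox4i1 and Atp5b. Sdha lay between 3959 and 4866. Uqcrc1, a partner of Uqcrc2, lay between 2351 and 3159. Cox7a2l, a complex IV-related protein known for joining complexes III and IV into supercomplexes, spanned 6112 to 12284. Atp5b, the catalytic β subunit of ATP synthase, spanned 10162 to 18428. The values of Cox7a2l by culture group are described further on.

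The mitochondrial members varied far more. They took 2.41% and 2.61% of all normalized counts in TGFβ/IL-34 and 1.00% and 2.38% in TGFβ/IL-34/FICZ. They took 1.98%, 2.42% and 0.895% in TGFβ/IL-34/Jag1 and 2.00%, 2.05% and 1.41% in TGFβ/IL-34/Jag1/FICZ. The Jag1 only sample had 1.17%. The shares in TGFβ/IL-34/FICZ and TGFβ/IL-34/Jag1 thus differed more than 2-fold between samples of the same group.

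The ratio of the mitochondrial to the nuclear sum was 3.70 ± 0.344 (SD, n = 2) in TGFβ/IL-34, 1.98 ± 1.62 (SD, n = 2) in TGFβ/IL-34/FICZ, 2.57 ± 1.17 (SD, n = 3) in TGFβ/IL-34/Jag1 and 2.73 ± 0.490 (SD, n = 3) in TGFβ/IL-34/Jag1/FICZ, with 1.81 in the Jag1 only sample. In TGFβ/IL-34/FICZ the samples read 0.831 and 3.13, and in TGFβ/IL-34/Jag1 they read 2.87, 3.57 and 1.28. All 13 mitochondrial members of TGFβ/IL-34/Jag1 replicate 3 were at 0.342 to 0.635 of the mean of replicates 1 and 2, while the nuclear members had a median of 1.03 in the same comparison.

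**Figure D3:**
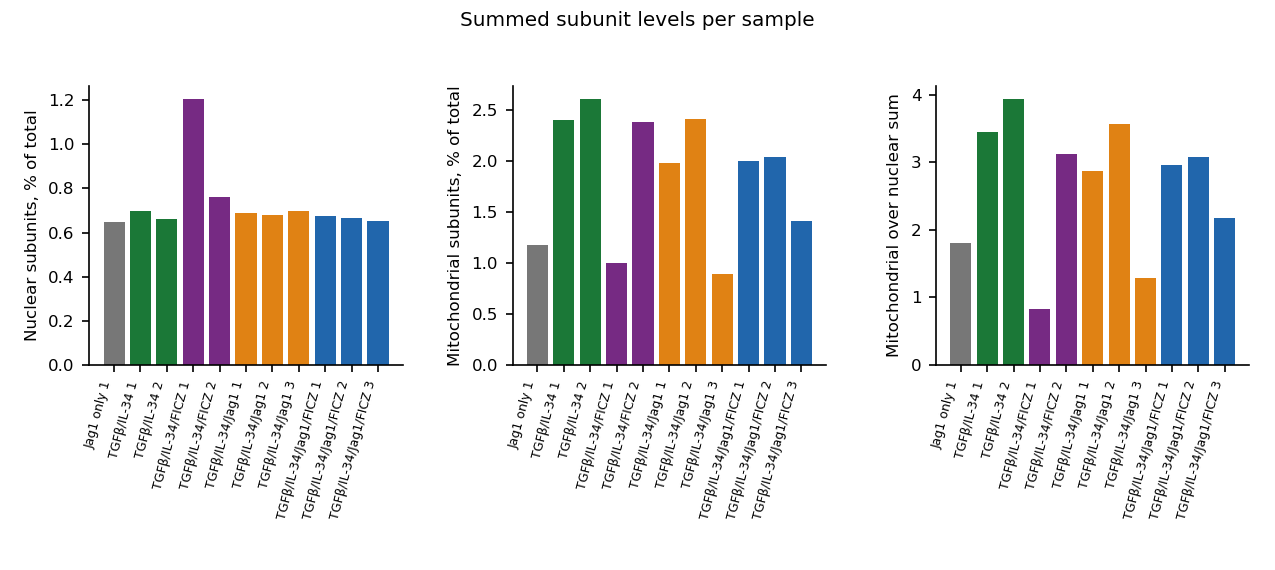
Bars show, for each of the 11 samples (coloured by group), the percentage of all normalized counts taken by the nuclear members, the percentage taken by the mitochondrial members, and the ratio of the sums. The nuclear share lies between 0.648% and 0.762% in 10 samples and at 1.21% in TGFβ/IL-34/FICZ replicate 1, and the mitochondrial share ranges from 0.895% to 2.61%.

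Group comparisons were fitted on log2(value + 1) with limma over all 11 samples and all 13095 genes tested, with an adjusted p under 0.05 as the threshold. Few members passed it. FICZ added to Jag1 cultures changed 17.7% of all genes tested but only 2 of 94 members (2.13%), 1 higher beside 10.9% of all genes and 1 lower beside 6.71%. Jag1 added without FICZ changed 6.60% of all genes and 0 members, with 5 members at an unadjusted p under 0.05. FICZ added without Jag1 changed 0.0229% of all genes and 0 members, with 45 members at an unadjusted p under 0.05. Jag1 and FICZ together against neither changed 4.48% of all genes and 0 members, with 6 members at an unadjusted p under 0.05. Jag1 added in the presence of FICZ changed 2.02% of all genes and 3 members (3.19%), all 3 lower beside 0.603% of all genes. The interaction changed 1.39% of all genes and 0 members, with 22 members at an unadjusted p under 0.05. In these comparisons with Jag1 in the presence of FICZ and for the interaction, and in FICZ without Jag1, the TGFβ/IL-34/FICZ group with its divergent sample is one of the groups.

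The number of members whose groups did not overlap was read against the same count over all genes. With FICZ added to Jag1 cultures, 7 members lay apart on the higher side (7.45%, beside 23.6% of all genes) and 29 on the lower side (30.9%, beside 21.5%). With Jag1 alone these were 24 (25.5%, beside 23.7%) and 17 (18.1%, beside 22.8%), and with both factors 13 (13.8%, beside 28.8%) and 34 (36.2%, beside 25.5%). The comparisons that include the divergent sample gave 57 higher (60.6%, beside 22.6%) and 6 lower (6.38%, beside 23.1%) for FICZ without Jag1, and 0 higher (beside 19.6%) and 55 lower (58.5%, beside 16.2%) for Jag1 in the presence of FICZ.

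Ndufa4, an accessory subunit now placed in complex IV, rose with FICZ in Jag1 cultures. It is encoded at chr6:11897630-11907496 on the minus strand (GRCm39). Its normalized counts were 248, 242 and 193 in TGFβ/IL-34/Jag1 and 709, 701 and 526 in TGFβ/IL-34/Jag1/FICZ. The groups did not overlap, and the log2 fold change was 1.49 (SE 0.292, limma, adjusted p = 0.00562). It was past the threshold in all 20 alternative settings tried for this comparison, with log2 fold changes from 1.28 to 1.63.

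In the other groups Ndufa4 read 305 and 364 in TGFβ/IL-34, 1362 and 593 in TGFβ/IL-34/FICZ and 564 in Jag1 only. Both FICZ groups thus lay above both groups with TGFβ/IL-34 and without FICZ. Without Jag1 the FICZ difference was 1.43 on the log2 scale (SE 0.357, limma, adjusted p = 0.269), and it was 0.83 with the divergent sample left out. The test of the difference between the FICZ effects with and without Jag1 gave 0.06 (SE 0.461, limma, adjusted p = 0.943), and 0.66 with the divergent sample left out.

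AA467197 was set beside Ndufa4 after its values had been seen, and is no member by its symbol. It encodes Nmes1, a paralogue of Ndufa4 known to take its place in complex IV during inflammation, and its annotation (chr2:122478879-122483519, plus strand, GRCm39) holds the precursor of miR-147 inside an exon of 5 of its 6 transcripts. Its normalized counts were 16994, 12203 and 12181 in TGFβ/IL-34/Jag1 and 2890, 2867 and 3913 in TGFβ/IL-34/Jag1/FICZ. It fell where Ndufa4 rose, with a log2 fold change of −2.09 (SE 0.308, limma, adjusted p = 0.00119), and passed the threshold in 20 of 20 alternatives.

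The levels of AA467197 in the other groups were 6541 and 5825 in TGFβ/IL-34, 10192 and 3953 in TGFβ/IL-34/FICZ and 1609 in Jag1 only. Jag1 without FICZ gave a log2 difference of 1.14 (SE 0.344, limma, adjusted p = 0.0838), with the 3 Jag1 samples above both samples without it. The ratio of AA467197 to Ndufa4 per transcript length was 28.6, 21.1 and 26.4 in TGFβ/IL-34/Jag1 and 1.71, 1.71 and 3.11 in TGFβ/IL-34/Jag1/FICZ. It was 8.97 and 6.70 in TGFβ/IL-34, 3.13 and 2.79 in TGFβ/IL-34/FICZ and 1.19 in Jag1 only. The 5 groups did not overlap in this ratio except for the FICZ groups with each other. In this ratio, which is taken within a sample, TGFβ/IL-34/FICZ replicate 1 lay beside replicate 2.

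Ndufb1, an accessory subunit of the membrane arm of complex I (chr12:101934343-101943331, minus strand, GRCm39), fell in the same comparison. Its normalized counts were 774, 878 and 912 in TGFβ/IL-34/Jag1 and 455, 481 and 469 in TGFβ/IL-34/Jag1/FICZ. The groups did not overlap, and the log2 fold change was −0.86 (SE 0.181, limma, adjusted p = 0.00820), past the threshold in all 20 alternatives. In TGFβ/IL-34 it read 715 and 563, in TGFβ/IL-34/FICZ 985 and 711, and in Jag1 only 396. The interaction of Jag1 and FICZ was −1.26 for this gene (SE 0.287, limma, adjusted p = 0.0667).

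Markers of the cell cycle and of other cell types differed between these groups at the same time. The summed level of 6 cell cycle genes was 2670 to 4002 in TGFβ/IL-34/Jag1 and 12305 to 12632 in TGFβ/IL-34/Jag1/FICZ, and all 6 rose. That of 4 granulocyte progenitor genes was 49.3 to 254 and 3767 to 6395. Of these 4, 3 were called higher, with log2 fold changes of the 4 from −0.42 to 9.52. The sum of 4 mast cell genes was 1101 to 2398 and 4275 to 6375, with at most 3 of the 4 above 0 in any of these samples. Of the 3 tested, 2 were called higher, with log2 fold changes of the 3 from 0.33 to 7.58. Of the 6 mLC-like markers, 3 (Cd207, Csf1r and H2-Ab1) were called lower with FICZ in Jag1 cultures and 0 higher. Log2 fold changes of the 6 ran from −6.27 to 0.52. The groups lay apart on the lower side for 4 and on the higher side for 1. The 10 stromal markers summed to 420 to 1083 without FICZ and 687 to 4635 with it, and 1 of the 8 tested was called higher. The part of these shifts in the changes of Ndufa4, AA467197 and Ndufb1 was not tested.

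The 250 bases before the start site of these genes are shown because FICZ acts through a DNA-binding receptor. They are RefSeq windows on GRCm38.p6, read 5′ to 3′ on the strand of the gene, and capitals mark the core of the xenobiotic response element, searched as GCGTG on both strands. The window of Ndufa4 (chr6:11907451-11907700, minus strand) held no match. That of Ndufb1 (chr12:101975739-101975988, minus strand) held 1, which begins 77 bases before the start site. That of AA467197 (chr2:122637637-122637886, plus strand) held 2, which begin 234 and 41 bases before it.
Ndufa4: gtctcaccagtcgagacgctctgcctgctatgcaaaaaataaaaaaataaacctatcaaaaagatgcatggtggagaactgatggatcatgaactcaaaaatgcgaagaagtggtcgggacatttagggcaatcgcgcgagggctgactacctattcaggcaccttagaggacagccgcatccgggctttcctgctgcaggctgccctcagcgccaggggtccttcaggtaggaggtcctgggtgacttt
Ndufb1: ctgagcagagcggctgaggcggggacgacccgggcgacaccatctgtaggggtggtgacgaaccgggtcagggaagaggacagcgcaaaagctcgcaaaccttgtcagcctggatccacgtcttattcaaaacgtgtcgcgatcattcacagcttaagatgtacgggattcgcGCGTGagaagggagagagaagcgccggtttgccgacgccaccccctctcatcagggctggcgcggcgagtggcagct
AA467197: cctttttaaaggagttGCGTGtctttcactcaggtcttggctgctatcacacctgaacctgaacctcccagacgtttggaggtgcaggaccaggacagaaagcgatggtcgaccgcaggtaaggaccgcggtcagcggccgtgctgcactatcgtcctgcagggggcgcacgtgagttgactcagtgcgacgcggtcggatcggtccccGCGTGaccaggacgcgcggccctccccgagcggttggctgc

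Of the 81 tested nuclear members, 67 had such a window, matched by symbol or Ensembl identifier. GCGTG occurred in 28 of the 67 (41.8%) and in 30.9% of all 27025 genes with a window. CCGGAAG, a motif of ETS factors such as GABPA, occurred in 12 (17.9%) beside 7.83%, and the palindromic motif of NRF1 in 4 (5.97%) beside 0.877%. GABPA and NRF1 are known regulators of respiratory chain genes, and none of these 3 motifs contains another. The 27025 genes were not limited to those tested here, nor matched to the members for base composition. The shares are therefore no measure of enrichment. A match is a description of letters and no evidence of binding.

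**Figure D4:**
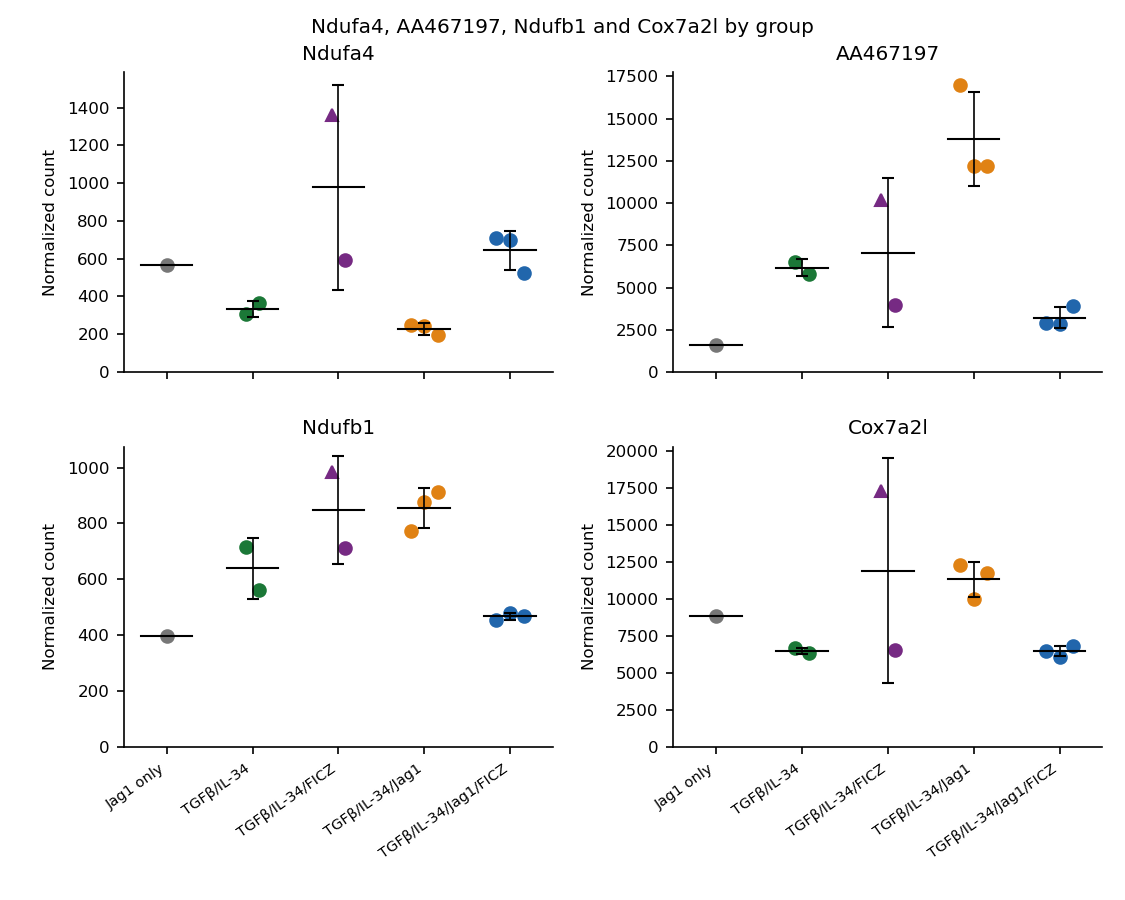
Normalized counts (y axes, from 0) of Ndufa4, AA467197, Ndufb1 and Cox7a2l in the 5 culture groups (x axis), with 1 point per sample, a line at the group mean and bars for the SD where a group has more than 1 sample. The triangle is TGFβ/IL-34/FICZ replicate 1. Ndufa4 is lower and AA467197, Ndufb1 and Cox7a2l are higher in the 3 TGFβ/IL-34/Jag1 samples than in the 3 TGFβ/IL-34/Jag1/FICZ samples.

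Cox7a2l had the same order of groups as Ndufb1 in Jag1 cultures but did not pass the threshold with all samples. Its normalized counts were 12284, 9974 and 11724 in TGFβ/IL-34/Jag1 and 6516, 6112 and 6833 in TGFβ/IL-34/Jag1/FICZ, with a log2 fold change of −0.80 (SE 0.289, limma, adjusted p = 0.0865). It read 6659 and 6357 in TGFβ/IL-34, 17283 and 6526 in TGFβ/IL-34/FICZ and 8856 in Jag1 only. Apart from the divergent sample, the TGFβ/IL-34/Jag1 samples were above every other sample. Jag1 without FICZ gave 0.79 (SE 0.324, limma, adjusted p = 0.209).

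The fit shares 1 estimate of spread among all groups, and without the divergent sample the standard error of AA467197 for FICZ with Jag1 was 0.165 in place of 0.308. With it left out, an alternative chosen after seeing the data, FICZ with Jag1 called 14 of 94 members (14.9%) beside 31.1% of all genes. Of these, 12 were lower with FICZ and 2 higher. The lower ones included Cox7a2l (adjusted p = 0.000484), Ndufb1, Ndufc2 (log2 fold change −0.73), Ndufa6 (−0.50), Ndufb11 and Ndufb5 of complex I, Sdhc (−0.45) and Sdhd, the membrane anchors of complex II, Uqcrfs1, the Rieske iron-sulphur protein of complex III, Cox4i1 (−0.36), and Atp5e and Atp5mpl of ATP synthase. The higher ones were Ndufa4 and Cox6a2 (1.67), the latter at 30.5, 16.7 and 8.07 without FICZ and 98.5, 36.1 and 43.3 with it.

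Jag1 without FICZ then called 8 of 94 members (8.51%) beside 16.5% of all genes. Cox7a2l, Ndufa6, Ndufc2, Atp5d and Ndufv3 were higher with Jag1, and Ndufa1, Ndufs1 and mt-Co3 were lower. Cox7a2l, Ndufa6 and Ndufc2 thus were higher with Jag1 and lower with FICZ added to Jag1. The comparisons share the TGFβ/IL-34/Jag1 samples. In Jag1 without FICZ, with all samples, 6 of 8 tested stromal markers were called higher. Called lower were 5 of 6 cell cycle genes, 2 of 3 tested mast cell genes and 1 of 4 granulocyte progenitor genes. Log2 fold changes ran from −6.20 to 0.47 for the mast cell genes and from −5.23 to 1.70 for the granulocyte progenitor genes. Their part in these differences was not tested. Ndufc2, a membrane-arm subunit of complex I, read 1104 and 933 in TGFβ/IL-34, 1438, 1355 and 1657 in TGFβ/IL-34/Jag1 and 899, 859 and 917 in TGFβ/IL-34/Jag1/FICZ. Jag1 and FICZ together called 3 members beside 12.8% of all genes, Ndufa4 and Cox6a2 higher and Ndufa1 lower. Without that sample Jag1 in the presence of FICZ called 1 member beside 1.67% of all genes, FICZ without Jag1 called 0 of 94 members and 0 of all genes, and the interaction called 0 members beside 0.932%.

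**Figure D5:**
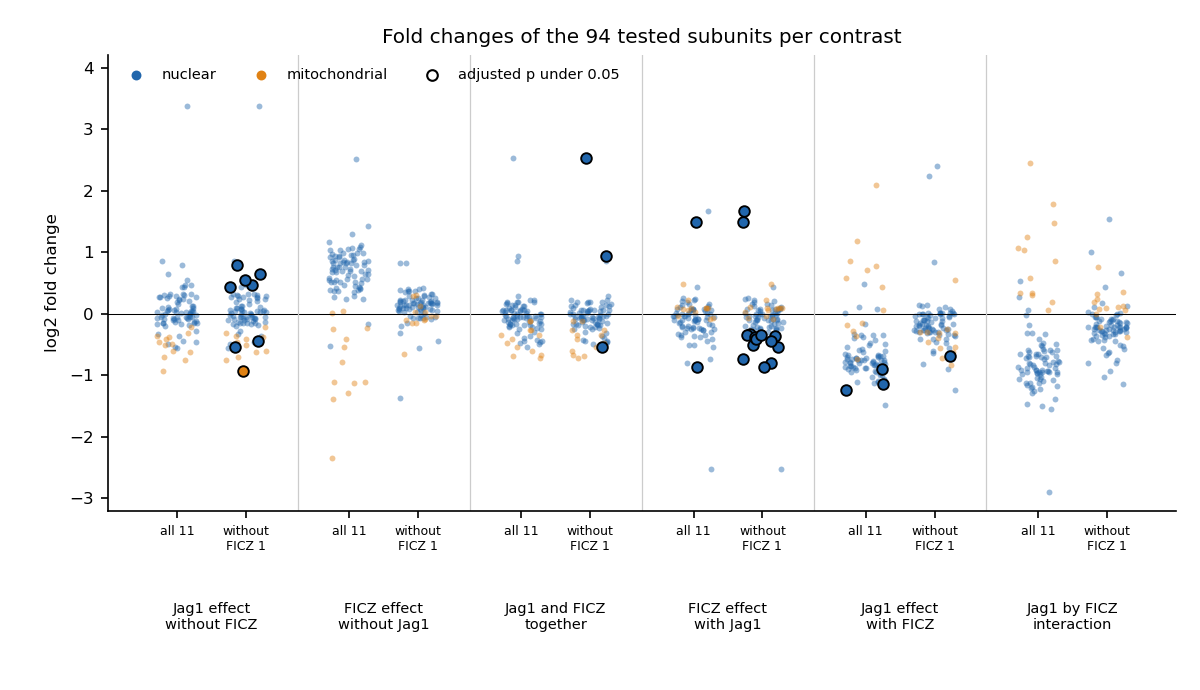
Log2 fold changes (y axis) of the 94 tested members in the 6 comparisons (x axis), each with all 11 samples and without TGFβ/IL-34/FICZ replicate 1. Nuclear members are blue, mitochondrial members orange, and ringed points have an adjusted p under 0.05. In FICZ without Jag1 the nuclear median is 0.72 with all samples and 0.15 without that sample, while in FICZ with Jag1 it is −0.08 in both.

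In Jag1 without FICZ, no member passed the threshold with all samples. The lowest unadjusted p belonged to mt-Co3, which read 36977 and 42354 in TGFβ/IL-34 and 22068, 26165 and 15313 in TGFβ/IL-34/Jag1 (log2 difference −0.94, SE 0.293, limma, adjusted p = 0.0958). Ndufs1, the largest iron-sulphur subunit of complex I, read 1454 and 1459 without Jag1 and 1214, 979 and 1031 with it (−0.44, SE 0.167, adjusted p = 0.170). Cox4i2, a form of Cox4 known from low oxygen, was near its detection floor at 0 and 5.75 without Jag1 and 17.9, 16.5 and 58.7 with it (3.38, SE 1.25, adjusted p = 0.162). A count of 3 reads corresponds to 2.68 to 3.45 normalized counts here.

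The 13 mitochondrial members all lay on the lower side in that comparison, with log2 differences from −0.94 to −0.21 and a median of −0.50, beside a median of 0.03 for nuclear members and 0.00 for all genes. This rested on 1 library. Without TGFβ/IL-34/Jag1 replicate 3 the mitochondrial median was −0.05, with a range from −0.72 to 0.16. With all samples kept and the replicate number as a block, the mitochondrial median was −0.20. Same-numbered samples of these groups do not share the experiment code of the description. With that code as a block the median was −0.44, and with the experiment code of the metadata table −0.79.

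In FICZ without Jag1 the nuclear median was 0.72, with complex I at 0.82, complex II at 0.26, complex III at 0.69, complex IV at 0.77 and complex V at 0.72, and the mitochondrial median was −0.79. Without the divergent sample these were 0.15 and −0.04. The members with the lowest unadjusted p were Ndufa4, given above, Atp5j2, which read 1585 and 1414 without FICZ and 4756 and 1968 with it (1.03, SE 0.324, limma, adjusted p = 0.285), and Cox7b, which read 1391 and 1247 and then 2252 and 1709 (0.57, SE 0.181, adjusted p = 0.285). With replicate 2 left out instead, so that the divergent sample stood alone for its group, 82 of 94 members were called, 74 higher and 8 lower, beside 43.7% of all genes.

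In Jag1 added in the presence of FICZ, 3 members passed the threshold in the fit without pairing, all lower. Ndufa1, a small membrane subunit of complex I, read 1615 and 1024 in TGFβ/IL-34/FICZ and 562, 676 and 521 in TGFβ/IL-34/Jag1/FICZ (log2 fold change −1.14, SE 0.224, limma, adjusted p = 0.0319). Atp5mpl, a small proteolipid of ATP synthase, read 1278 and 644 and then 408, 374 and 375 (−1.23, SE 0.267, adjusted p = 0.0477). Cox7b, a small complex IV subunit, fell from 2252 and 1709 to 1073, 1071 and 1022 (−0.89, SE 0.165, adjusted p = 0.0271). The groups did not overlap for any of them. Same-numbered samples of these groups share an experiment code, a pairing that this fit did not use. With the experiment code of the description or of the metadata table as a block, none of the 3 was called. Cox7b alone was called without the divergent sample, at −0.70 (adjusted p = 0.0369), and none of the 3 with the replicate number as a block. In the absence of FICZ, Ndufa1 read 918 and 778 in TGFβ/IL-34 and 560, 589 and 600 in TGFβ/IL-34/Jag1 (−0.54, SE 0.224, limma, adjusted p = 0.221).

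Complex II, which also belongs to the citric acid cycle, had no member past the threshold with all samples. Sdhc read 1720 and 1489 in TGFβ/IL-34, 2037, 1853 and 2005 in TGFβ/IL-34/Jag1 and 1404, 1426 and 1479 in TGFβ/IL-34/Jag1/FICZ. Sdhd read 2823 and 2690, then 3224, 3106 and 3657, then 2620, 2585 and 2762 in the same groups. For both genes the Jag1 samples without FICZ lay above the samples of the other groups with TGFβ and IL-34, apart from the divergent sample. Sdha and Sdhb, the catalytic pair, had log2 differences of 0.09 and 0.22 for FICZ with Jag1.

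Among mitochondrial members, mt-Co1 read 311597 and 319658 in TGFβ/IL-34, 292404, 316501 and 116381 in TGFβ/IL-34/Jag1 and 261945, 246711 and 179336 in TGFβ/IL-34/Jag1/FICZ. mt-Nd4, a proton-pumping subunit of complex I, read 34147 and 35676, then 34697, 41697 and 13385, then 30917, 34984 and 22579. mt-Atp6, the proton channel of ATP synthase, read 28146 and 32077, then 20196, 28735 and 12870, then 19150, 19360 and 17300. Replicate 3 was the lowest in both Jag1 groups for each of these genes. With Jag1 and FICZ together the mitochondrial median was −0.42, with 8 of 13 members below both TGFβ/IL-34 samples in all 3 samples, beside 25.5% of all genes, and no member passed the threshold. The median was −0.25 without TGFβ/IL-34/Jag1/FICZ replicate 3, −0.15 with the replicate number as a block and −0.72 with the experiment code of the metadata table as a block.

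No member passed the threshold for the interaction. The lowest unadjusted p belonged to Ndufb1, given above, Atp5mpl (−1.29, SE 0.378, limma, adjusted p = 0.134) and Cox7a2l (−1.51, SE 0.458, adjusted p = 0.147). The nuclear median was −0.86 and the mitochondrial median 0.85. Without the divergent sample they were −0.24 and 0.10.

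The alternative forms of subunits differed widely in their mean level per length over the same 10 samples. Cox4i1 stood at 9557 normalized counts per kilobase and Cox4i2 at 15.3, Cox6a1 at 7460 and Cox6a2 at 49.96, and Cox6b1 at 3254 and Cox6b2, the testis form, at 77.3. Cox7a2 stood at 1252 and the muscle form Cox7a1 at 43.0. Cox8a stood at 8305, while Cox8b and Cox8c were at 0. Of the 3 genes for the same subunit c of the ATP synthase rotor, Atp5g3 stood at 2240, Atp5g1 at 2131 and Atp5g2 at 330. No form of these sets passed the threshold in any of the 6 comparisons with all samples.

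The single Jag1 only culture, which had no TGFβ or IL-34, has no replicate and was set against the range of the other samples without the divergent one. Of 81 nuclear members, 12 were above that range, 30 below and 39 within it, which is 14.8% above and 37.0% below, beside 25.7% and 22.9% of all genes tested. In complex I, 18 of 37 were below the range. Ndufa5 of complex I read 83.8 beside 176 to 281, and Ndufa12 read 236, while Ndufv2, a core subunit, read 1934 and Atp5d of the ATP synthase stalk 6767, both above the range. Of the 13 mitochondrial members, 6 were below the range and none above. mt-Nd6, the complex I subunit read from the other strand of the mitochondrial genome, stood at 2053, and mt-Cytb at 7590.

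Genes that serve the same system were counted in the same way, beside 0.0229% to 17.7% of all genes called per comparison. Of 48 assembly factors, 1 (2.08%, beside 17.7% of all genes) fell with FICZ in Jag1 cultures, Ndufaf8 (log2 fold change −1.16, limma, adjusted p = 0.0324). With Jag1 in the presence of FICZ 1 fell (2.08%, beside 2.02%), Lyrm7, which acts on complex III (−3.44, limma, adjusted p = 0.0144). That comparison includes the divergent sample, and Lyrm7 was not followed in the alternative settings. Of 20 genes for copying and transcribing mitochondrial DNA and of 7 carriers, none passed the threshold in any comparison, with at most 4 and 1 at an unadjusted p under 0.05 in a comparison. The same held for 5 subunits and carriers outside the symbol rule, such as cytochrome c, with at most 2. Of 16 genes of the citric acid cycle and pyruvate dehydrogenase, Pdha1 alone fell with FICZ in Jag1 cultures (−0.44, limma, adjusted p = 0.0475). This is 6.25% of the list beside 17.7% of all genes.

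Among 9 nuclear regulators of mitochondrial genes, Myc (1.96, limma, adjusted p = 0.0143) and Gabpb1 (0.81, adjusted p = 0.0206), a partner of GABPA, rose with FICZ in Jag1 cultures, which is 22.2% of the list beside 17.7% of all genes. Gabpb1 also rose with Jag1 and FICZ together (0.96, limma, adjusted p = 0.0445), which is 11.1% of the list beside 4.48% of all genes. Ppargc1b, a coactivator of mitochondrial genes, fell with Jag1 in the absence of FICZ, from a mean of 148 to 45.02 (−1.70, limma, adjusted p = 0.0157). This is 11.1% of the list beside 6.60% of all genes. Of 78 mitochondrial ribosomal protein genes, Mrps27 rose with Jag1 in the absence of FICZ (1.12, limma, adjusted p = 0.0232). It fell with FICZ in Jag1 cultures (−0.99, limma, adjusted p = 0.0109), and Mrpl51 fell with Jag1 in the presence of FICZ (−1.004, limma, adjusted p = 0.0278). The divergent sample is in the comparison that called Mrpl51, and neither gene was followed in the alternative settings. Each call is 1.28% of the list, beside 6.60%, 17.7% and 2.02% of all genes in that order. In FICZ without Jag1 the median of these 78 was 0.65, close to that of the nuclear subunits, and the divergent sample belongs to that comparison too.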

How the data were processed

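The authors quantified reads with salmon against Ensembl GRCm39, collapsed them to genes with tximport and scaled them with DESeq2, as the methods of the study state. They deposited this normalized signal (normalized counts) for 21860 genes in 11 samples. Tool versions are not given in the sources used here. Sequencing depth was estimated from single-transcript genes with low values. Their values fell within 0.1 of a whole multiple of a sample-specific step in 79.1% to 98.8% of cases. Whole reads were not recovered for all genes, so no count model was run. Depth and the number of samples limit precision for genes with few reads. A deposited metadata table lists the experiment code and condition of each sample. All 101 members matched GENCODE vM39 by Ensembl identifier, from which transcript lengths and GRCm39 coordinates were taken.

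Values were taken as log2(value + 1), filtered at 10 in at least 2 samples and modelled with limma 3.58.1 under R 4.3.3, using a trend, 1 mean per group and 6 residual degrees of freedom. All tests were two-sided and were adjusted by Benjamini-Hochberg over all 13095 genes per comparison. Where an arm held 1 sample, its spread was assumed to be that of the other groups. Scripts were tested on simulated data. Members and lists were chosen with earlier results of these data known. Named members were those called, up to 5 per direction and comparison with a mean of at least 50, otherwise the 3 with the lowest unadjusted p, complex II, the mitochondrial members, the highest of each complex and the alternative forms. A result that the rule would name is not reported here. Of the lists, up to 3 called genes per comparison were named. Others named illustrate a range or count and were chosen after their values were seen. Atp5if1 is not listed under that symbol and was not described.

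Same-numbered samples with Jag1, with FICZ and without it, carry the same experiment code. Their deviations from the group means correlated at 0.153, 0.122 and 0.166 across genes, so the numbers pair them. The same-numbered TGFβ/IL-34/FICZ and TGFβ/IL-34/Jag1/FICZ samples also share a code, and correlated at 0.0591 and 0.0578. The main fit used no pairing, while the blocks for replicate and experiment code did. Alternatives were quantile normalization, scaling to the nuclear total, pseudocounts of 0.5 and 4, no filter, a filter of 50, only the groups compared, array weights, blocks for replicate, experiment code and flow cell, and leaving out each sample.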

Additional observations from a re-analysis of the deposited data

How the results depend on the processing

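Counts of members called, out of 94, differed between settings, among them the fit without the divergent sample, TGFβ/IL-34/FICZ replicate 1. The share of all genes called in the same fit stands in brackets. Array weights gave both TGFβ/IL-34/FICZ samples the same low weight of 0.151, so they did not set the divergent sample apart from replicate 2. For Jag1 without FICZ the count was 0 with all samples (6.60%), 8 without that sample (16.5%), 7 with array weights (20.1%), 1 with only the groups compared (8.34%) and 1 with the experiment code of the metadata table as a block (7.92%). For Jag1 and FICZ together it was 0 with all samples (4.48%), 3 without that sample (12.8%), 10 with array weights (27.2%) and 7 with only the groups compared (21.4%). For FICZ with Jag1 it was 2 with all samples (17.7%), 14 without that sample (31.1%), 8 with array weights (31.5%), 11 with only the groups compared (27.5%) and 6 with the flow cell as a block (18.3%). For Jag1 with FICZ it was 3 with all samples (2.02%), 0 with array weights (0%) or only the groups compared (0%), and 0 with the replicate block (1.43%) or the experiment code of the description (1.5%) or of the metadata table (1.59%) as a block. With single samples left out it ranged from 0 to 81 for Jag1 with FICZ, from 0 to 82 for FICZ without Jag1 and from 0 to 78 for the interaction. The highest counts were those without TGFβ/IL-34/FICZ replicate 2 (44.4%, 43.7% and 41.9%).

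Under the replicate block, FICZ with Jag1 called Ndufa4 and Ndufb1, and no other comparison but Jag1 with FICZ gained or lost a call. The cause of these changes was not tested. Ndufa1 passed the threshold in 9, Atp5mpl in 8 and Cox7b in 10 of 18 alternatives for Jag1 with FICZ, and Cox7a2l in 5 of 20 for FICZ with Jag1. No result changed sign among those past the threshold. Members with few reads, such as Cox4i2, are limited by depth, and groups of 2 samples limit the comparisons with TGFβ/IL-34 and TGFβ/IL-34/FICZ.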
